A study of Homo sapiens with 16 samples.

Results

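The genes described here encode the DNA replication machinery: the proteins that mark and license replication origins, unwind and copy DNA, join the new strands, package them into chromatin and supply deoxynucleotides. They were chosen by name, as 49 gene symbols looked up in the platform annotation of the array, with no measured value in the rule. The list was nonetheless drawn up with earlier results of these data known, so it is not independent of them. Of the 49 genes, 46 had at least 1 probe set on the array (62 probe sets in all, of 12626), and ORC6, GINS2 and GMNN had none. Testing required an intensity above 292.74, the median of all values, on 2 or more of the 16 arrays, and 44 of the 46 genes met this. ORC4 and CHAF1B did not pass.

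RNA came from cultures of U937, a monocytic leukaemia cell line of human origin, and was read on Affymetrix U95Av2 oligonucleotide arrays. The cells of all 8 groups carried AML1-ETO, the fusion of RUNX1 and RUNX1T1 made by the t(8;21) translocation, under a tetracycline-controlled promoter, and grew in RPMI medium with fetal calf serum and antibiotics. Control cells were sampled at 0, 24, 48 and 72 h and cells labelled as induced for AML1-ETO at 12, 24, 48 and 72 h, with 2 arrays per group. Controls of 12 h, of which the labels also speak, were not analysed here, and the sources used here do not say how the control and the induced cultures were handled apart. Whether the 2 replicates of a group were separate cultures is not in the labels, so the p-values reflect the scatter of these arrays, part or all of which may be technical. The model is 1 cell line in culture, with the fusion driven by an inducible promoter and not by its own.

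DNA replication starts at origins bound by the origin recognition complex (ORC), where CDC6 and CDT1 load a ring of MCM2 to MCM7 around DNA in G1 phase. The kinase CDC7, CDC45 and the GINS complex turn this ring into an active helicase at the start of S phase, and polymerases α, δ and ε then copy the strands with the sliding clamp PCNA. Many of these genes are transcribed around the G1/S boundary under control of E2F factors, and their RNA is abundant in cycling cells and scarce in resting ones. RNA from a whole culture cannot tell fewer cells in cycle from less RNA per cell.

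RefSeq promoter windows (GRCh38.p14, from 250 bases before to 50 after a transcription start) were given for 41 of the 46 genes, and MCM4, MCM5, POLD3, RPA2 and RPA3 had none. They were searched on both strands for 4 E2F-type octamers, TTTCCCGC, TTTCGCGC, TTTGCCGC and TTTGGCGC, with overlapping matches on opposite strands counted each. At least 1 window held a match in 19 of the 41 genes (46.3%), against 3.99% of all 27305 genes with a window and 6.68% of the 4599 genes that were also tested on the array. Excerpts of 80 bases that lie before the most upstream start are shown for 7 genes from different steps of replication, to show the motif where it was found. They were taken only from genes called lower in induced cells at 72 h (calls given below) with a match wholly before that start. Each step that had such genes gave the one with the smallest p at 72 h. Each excerpt is written 5′ to 3′ on the strand of the gene, with the match in capitals. They are MCM7 (chr7:100101398-100101477, minus strand), PCNA (chr20:5126638-5126717, minus), CDT1 (chr16:88803709-88803788, plus), POLA2 (chr11:65261873-65261952, plus), POLE (chr12:132687343-132687422, minus), TYMS (chr18:657573-657652, plus) and LIG1 (chr19:48170415-48170494, minus).
MCM7: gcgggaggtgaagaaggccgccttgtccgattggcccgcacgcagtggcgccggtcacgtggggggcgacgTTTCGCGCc
PCNA: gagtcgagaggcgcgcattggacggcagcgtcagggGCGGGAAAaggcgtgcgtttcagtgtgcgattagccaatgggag
CDT1: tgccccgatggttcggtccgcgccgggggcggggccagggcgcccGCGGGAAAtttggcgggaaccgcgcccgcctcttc
POLA2: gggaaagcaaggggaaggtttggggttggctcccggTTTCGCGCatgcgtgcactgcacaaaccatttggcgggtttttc
POLE: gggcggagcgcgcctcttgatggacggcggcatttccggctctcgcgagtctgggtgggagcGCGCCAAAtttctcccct
TYMS: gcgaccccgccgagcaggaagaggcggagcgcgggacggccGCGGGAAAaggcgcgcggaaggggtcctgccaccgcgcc
LIG1: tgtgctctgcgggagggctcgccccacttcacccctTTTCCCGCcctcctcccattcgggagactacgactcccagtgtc

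The first base of the match lay 9 bases before the start in MCM7, 18 in POLE, 35 in CDT1, 39 in TYMS, 53 in POLA2, 59 in PCNA and 114 in LIG1. MCM7 had a further match in its window, as did CDC7, MCM2, MCM3, MCM6 and DUT. A CCAAT box (CCAAT) was found in 22 of the 41 genes (53.7%, against 39.7% of all genes). The motif TTTGAA of cell cycle homology regions was found in 2 (4.88%, against 18.2%) and the RUNX core TGTGGT in 5 (12.2%, against 15.6%). A match describes letters in these windows and is not a measured binding site.

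All 16 arrays had a mean intensity of 1370.9, with medians between 220.3 and 337.5, and replicate arrays correlated at 0.912 to 0.955 over the tested probe sets. Between 22.6 and 33.9% of values on an array were below 0, and values under 135.61 (the 40th percentile of all values) were set to that floor before log2 was taken. The array reads the fusion through RUNX1T1, by probe set 35641_g_at. Its highest value in 8 control arrays was 91.4, and it read -116.5 and 86.1 on the arrays labelled induced at 12 h, 1592 and -47.5 at 24 h, 8650 and 3974 at 48 h, and 10603 and 8355 at 72 h. Thus both arrays labelled induced at 12 h and replicate 2 at 24 h were not above the controls by this probe set, and the 3 other RUNX1T1 probe sets read from -454.8 to 351.5 on the 16 arrays. Of 12 monocytic and U937 marker genes on the array, AZU1, CD4, CTSG, ITGB2, LYZ and SPI1 (6) exceeded the floor on all 8 control arrays and 2 on none. T cell markers did so in 2 of 8 genes (CD3E, CD7), B cell markers in 1 of 5 (CD79A), erythroid and megakaryocytic markers in 3 of 6 (ALAS2, EPOR, ITGA2B) and epithelial and fibroblast markers in 2 of 8 (COL1A1, KRT8).

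At 72 h induced cells had less RNA than control cells for at least 1 gene in every step of replication. Of the 44 genes tested, 36 were lower, TOP1 alone was higher, and 7 passed in neither direction, with a median log2 difference of -1.57 over the 44. Of all 5589 genes tested, 14.4% were lower and 16.9% higher at this hour, with a median of 0.19. At 48 h the same comparison gave 17 lower and 0 higher of 44, with a median of -0.58, against 8.98% lower and 11.5% higher of all genes, with a median of 0.10. At 24 h no replication gene was called, and neither was any other gene (0% lower and 0% higher). Calls are from limma at a Benjamini-Hochberg adjusted p under 0.05 over all 7824 probe sets, two-sided, with 2 arrays against 2 at each hour and 1 probe set per gene, the brightest. The summed level of the 12 monocytic markers also moved, from 37186 to 46024 in the 8 control arrays to 20903 to 24219 in the 4 induced arrays of 48 and 72 h, and its part in these results was not tested. The sums of the other marker lists in the same arrays ran from 2817 to 4352 for T cells (controls 2349 to 4123), 755.1 to 1157 for B cells (993.7 to 2197), 6146 to 8840 for erythroid and megakaryocytic (6341 to 9596) and 5795 to 9004 for epithelial and fibroblast (5728 to 8191).

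**Figure D1:**
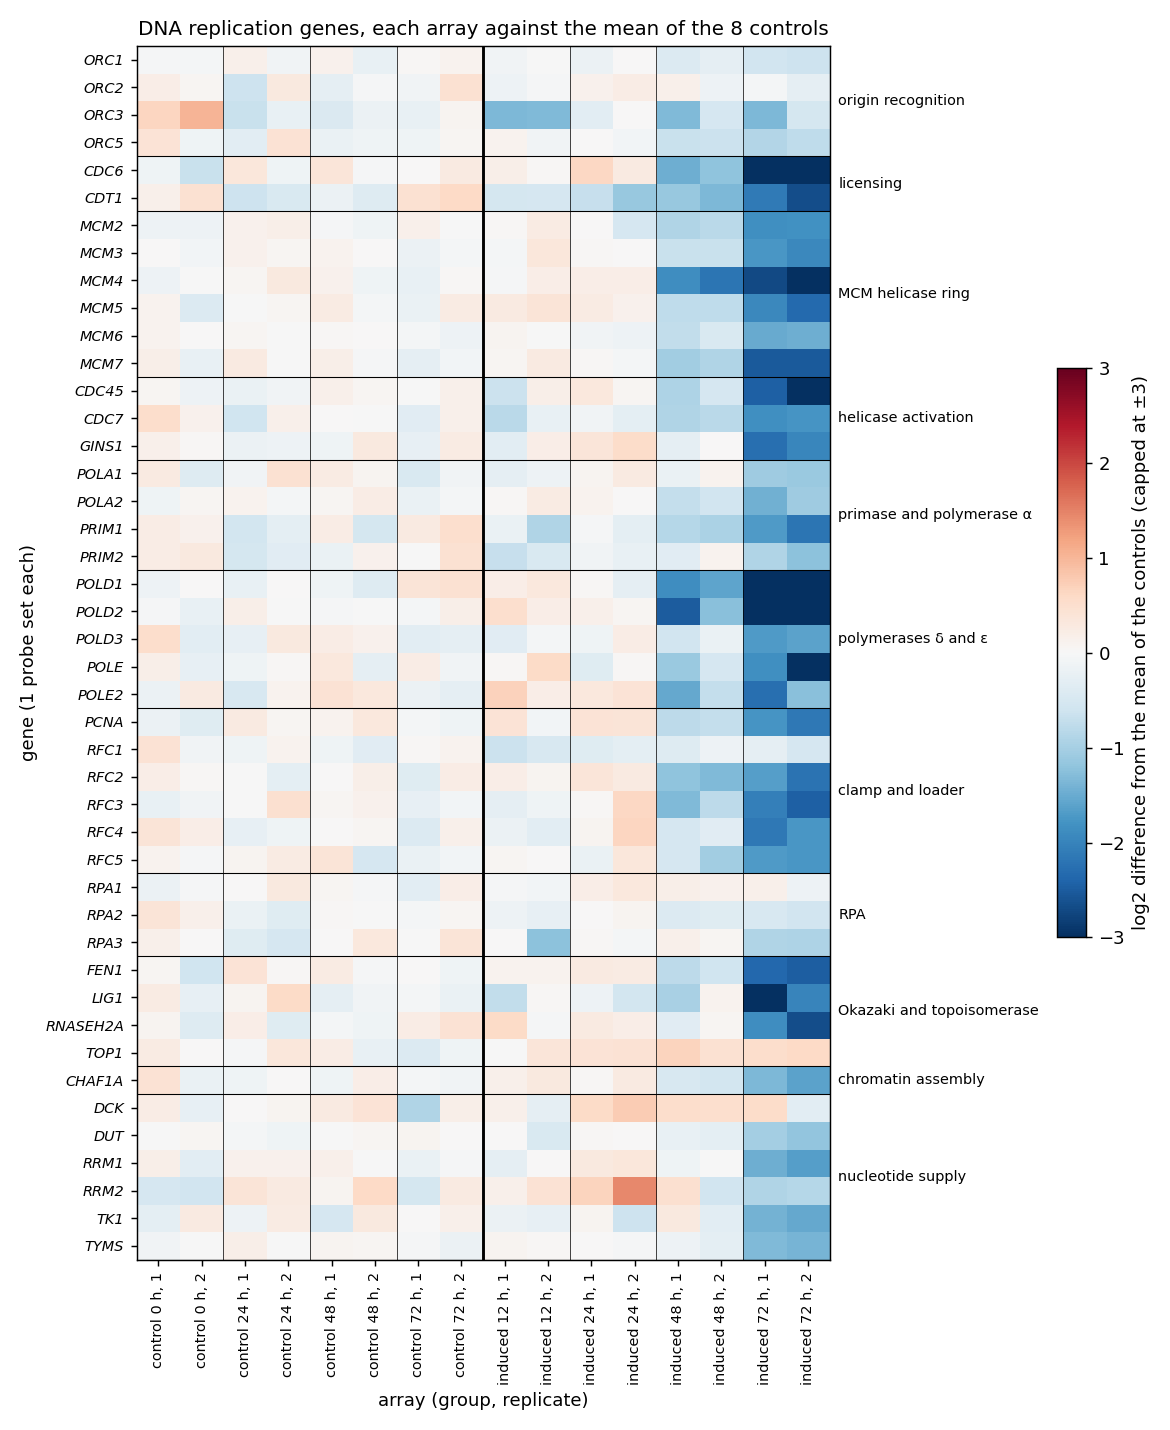
Heat map of the 44 replication genes tested (rows, grouped by step) on the 16 arrays (columns), coloured by the log2 difference of each array from the mean of the 8 control arrays and capped at 3 in either direction. Most rows turn blue in the induced arrays of 48 h and darker at 72 h, while the columns of 12 and 24 h show no such block of blue. TOP1 goes the other way, and rows such as DCK and RPA1 show no such turn.

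The 48 h count depended on single arrays: it was 11 without replicate 1 of the induced 48 h cells and also 11 without replicate 1 of the 48 h controls. The 72 h count was between 33 and 36 when any 1 array was left out. Among all genes at 48 h, calls of a lower level also fell when either 48 h control array was left out. Calls of a higher level fell without either replicate of either group. Dependence on single arrays was therefore not particular to the replication genes. Taken over the 3 shared hours, with 6 arrays against 6, 32 of the 44 genes were lower and 1 higher in induced cells (median -0.68), against 13.8% lower and 19.8% higher of all genes (median 0.10).

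The MCM ring, the core of the replicative helicase, was lower in all 6 subunits at both 48 h (median -0.82) and 72 h (median -2.03). MCM7 (947_at) read 10384 and 7775 on the control arrays at 0 h, 11010 and 9023 at 24 h, 10315 and 8927 at 48 h, and 7529 and 8600 at 72 h. In induced cells it read 9565 and 11000 at 12 h, 9386 and 8813 at 24 h, 4405 and 4913 at 48 h, and 1601 and 1587 at 72 h. The 4 late induced arrays lay below the other 12, and both 72 h arrays below both of 48 h. The log2 difference was -1.04 (SE 0.17, adjusted p = 0.000764) at 48 h and -2.34 (SE 0.17, adjusted p = 5.95e-07) at 72 h, a 5.05-fold lower level.

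MCM4 had the largest fitted difference of the 6 subunits, -2.02 (SE 0.36, adjusted p = 0.00156) at 48 h and -3.40 (SE 0.36, adjusted p = 1.20e-05) at 72 h. Its control arrays spanned 4184 to 6059, and the induced arrays read 1359 and 1085 at 48 h and 752.3 and 250.6 at 72 h. MCM6 had the smallest, -0.63 at 48 h and -1.39 at 72 h, and was the brightest of these probe sets, at 18340 to 21748 in controls and 7100 and 7345 at 72 h. MCM2 (-1.89), MCM3 (-1.72) and MCM5 (-2.17) lay between them at 72 h. For MCM2 to MCM7, the 48 h difference as a share of the 72 h difference ran from 39.4% (MCM5) to 59.3% (MCM4) on the log2 scale. The MCM5 call at 48 h (-0.86, adjusted p = 0.0164) was lost without either induced 48 h array (adjusted p = 0.0703 without replicate 1 and 0.0771 without replicate 2) or replicate 1 of the 48 h controls (0.143).

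**Figure D2:**
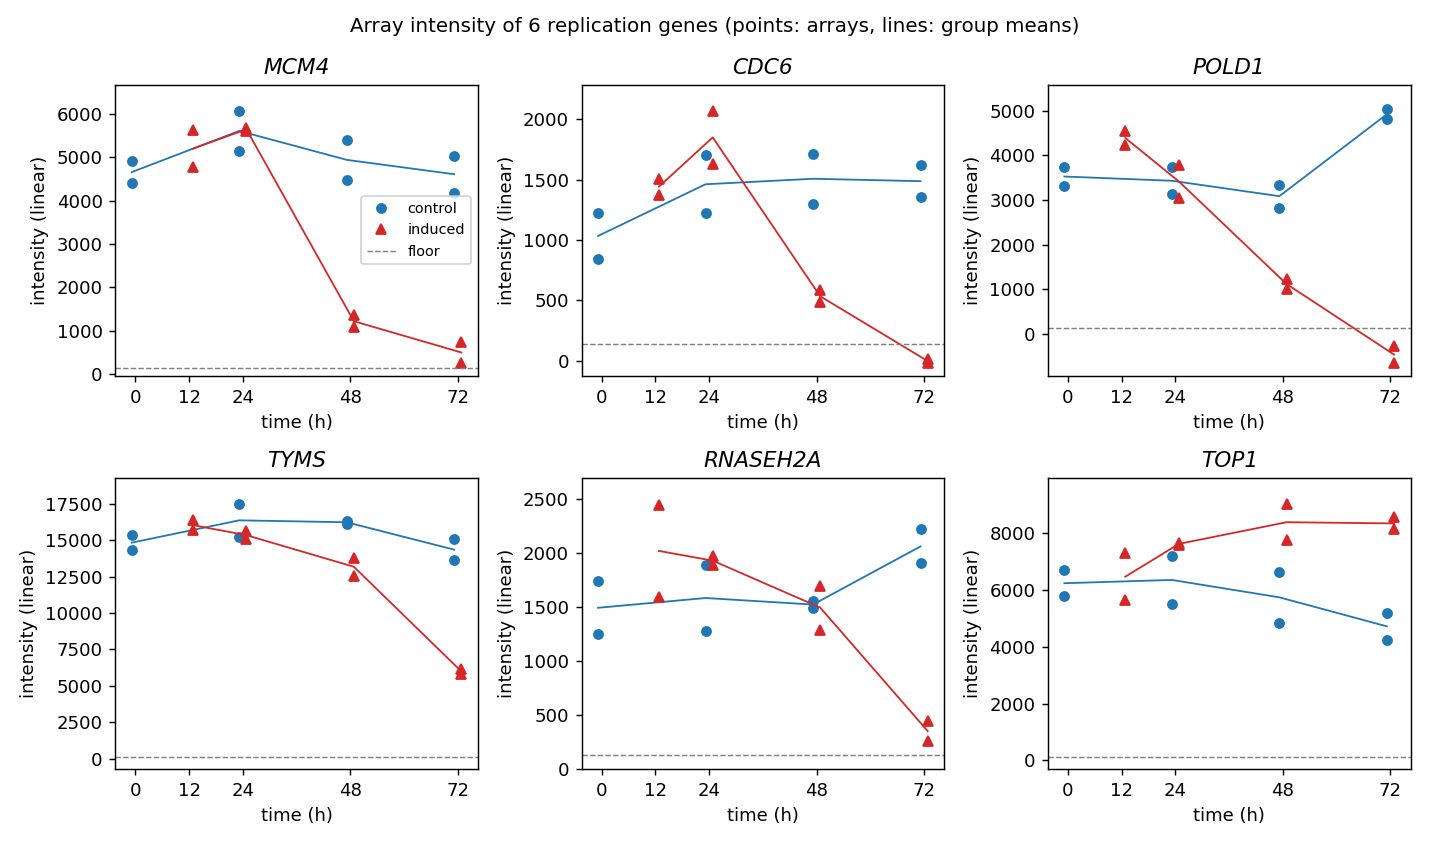
Linear array intensity of MCM4, CDC6, POLD1, TYMS, RNASEH2A and TOP1 against time, with 1 point per array, lines through the means of 2 arrays and a dashed line at the floor of 135.61. MCM4, CDC6 and POLD1 had dropped by 48 h, TYMS and RNASEH2A mainly at 72 h, and TOP1 lay above its control at 72 h.

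Both licensing factors that load the ring were lower at 48 and 72 h. CDT1 (34510_at), the MCM loader that is destroyed once S phase begins, read 5068 and 6179 on the control arrays at 0 h, 2945 and 3283 at 24 h, 3990 and 3454 at 48 h, and 6180 and 6883 at 72 h. Induced cells read 3146 and 3173 at 12 h, 2814 and 2049 at 24 h, 2057 and 1781 at 48 h, and 1040 and 721.8 at 72 h. Controls themselves ranged widely, yet at 48 and 72 h all induced arrays lay below the lowest control. Both induced 24 h arrays did so too, and the lower of them, 2049, was under the higher 48 h array, 2057. CDT1 differed by -0.96 (SE 0.21, adjusted p = 0.00672) at 48 h and -2.91 (SE 0.21, adjusted p = 6.28e-07) at 72 h, 7.53-fold lower. The 48 h call was lost without replicate 2 of the induced (adjusted p = 0.0574) or replicate 1 of the control arrays (0.0663).

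CDC6 (1536_at), the ATPase that recruits CDT1 and the MCM ring to ORC, spanned 844.0 to 1713 in the 8 controls and 1376 to 2070 in the induced arrays of 12 and 24 h. It read 483.6 and 584.2 at 48 h and 16.2 and -21.8 at 72 h, where both arrays lay under the floor. Its difference was -1.49 (SE 0.30, adjusted p = 0.00375) at 48 h and -3.45 (SE 0.30, adjusted p = 2.78e-06) at 72 h, at least 10.9-fold lower. A dimmer CDC6 probe set, 36839_at, did not pass at 72 h (-0.13, adjusted p = 0.902). Geminin, the inhibitor of CDT1, is the listed gene GMNN and has no value here.

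The origin recognition complex differed less than the factors it recruits. Of its 4 tested subunits none was called at 48 h, and ORC1, the subunit whose level cycles in human cells, was lower at 72 h. ORC1 (38564_at) read 3325 and 3266 on the control arrays at 0 h, 3815 and 3194 at 24 h, 3754 and 2961 at 48 h, and 3536 and 3665 at 72 h. Induced cells read 3204 and 3420 at 12 h, 3025 and 3475 at 24 h, 2599 and 2836 at 48 h, and 2309 and 2221 at 72 h. The late induced arrays did not overlap the others, but the difference was small, -0.67 (SE 0.17, adjusted p = 0.00747) or 1.59-fold lower at 72 h. ORC2 (-0.34, adjusted p = 0.467), ORC3 (-0.87, adjusted p = 0.146) and ORC5 (-0.79, adjusted p = 0.0994) did not pass at 72 h. The fitted falls of ORC3 and ORC5 were nevertheless larger than that of ORC1, and the late induced arrays of ORC5 also lay below the other 12. ORC5 was called lower at 72 h in 4 of 26 alternative settings and ORC3 in 2 of 25, so ORC1 is not set apart by size. ORC4 was dim throughout, between -225.2 and 58.2 in controls and at most 100.7 in induced cells, and so lay under the floor on all 16 arrays.

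All 3 tested factors that activate the helicase were lower at 72 h. CDC45 (37458_at), which joins the MCM ring in the moving helicase, read 1844 and 1585 on the control arrays at 0 h, 1544 and 1646 at 24 h, 1965 and 1842 at 48 h, and 1756 and 1939 at 72 h. Induced cells read 1126 and 1980 at 12 h, 2187 and 1834 at 24 h, 927.6 and 1243 at 48 h, and 320.3 and 52.1 at 72 h. One 12 h array fell between those of 48 h, so the late arrays as a set overlapped the rest, and the 72 h arrays did not. CDC45 differed by -0.83 at 48 h (SE 0.37, adjusted p = 0.146) and -3.15 (SE 0.37, adjusted p = 3.02e-05) at 72 h, at least 8.85-fold lower.

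GINS1, a subunit of the GINS complex, was 4.32-fold lower at 72 h (-2.11, adjusted p = 4.19e-05) with 377.7 and 460.9 against 1524 and 2134 in the controls. At 48 h it read 1487 and 1821 (-0.20, adjusted p = 0.659), so that 9.67% of its 72 h log2 difference was present then. CDC7, the kinase that triggers the loaded ring, was lower at both hours, by -0.86 (adjusted p = 0.0423) and -1.70 (adjusted p = 0.000381). Its 48 h call did not hold without any 1 of the 4 arrays compared, with adjusted p from 0.12 (without replicate 2 of the induced cells) to 0.16 (without replicate 1 of the induced cells), and it also missed the threshold without any 1 induced array of 24 or 72 h (0.0544 to 0.0565).

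Polymerase α with its primase, which lays down the primers, was lower in all 4 subunits at 72 h and in POLA2 at 48 h (-0.78, adjusted p = 0.00611). The 48 h call of POLA2 was lost without replicate 1 of the induced (adjusted p = 0.0514) or replicate 2 of the control arrays (0.0615). PRIM1 (798_at), the catalytic primase subunit, read 3081 and 2886 on the control arrays at 0 h, 1803 and 2138 at 24 h, 3061 and 1834 at 48 h, and 3156 and 3725 at 72 h. Induced cells read 2298 and 1411 at 12 h, 2550 and 2150 at 24 h, 1448 and 1353 at 48 h, and 803.1 and 572.0 at 72 h. Its 72 h arrays stood below the other 14, and the difference was -2.34 (SE 0.29, adjusted p = 4.18e-05), 5.06-fold lower. POLA2 (-1.13), PRIM2 (-1.30) and the catalytic subunit POLA1 (-0.81, adjusted p = 0.0262) differed less. The POLA1 call was lost without replicate 1 (adjusted p = 0.0802) or 2 (0.102) of the induced 72 h arrays, and without replicate 2 of the 72 h controls (0.16).

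Polymerases δ and ε, which copy the lagging and the leading strand, were lower in 3 of 5 tested subunits at 48 h (median -1.46) and in all 5 at 72 h (median -3.07). POLD1 (1462_s_at), the catalytic subunit of polymerase δ, read 3321 and 3726 on the control arrays at 0 h, 3131 and 3726 at 24 h, 3339 and 2828 at 48 h, and 4810 and 5024 at 72 h. Induced cells read 4236 and 4538 at 12 h, 3780 and 3039 at 24 h, 1012 and 1225 at 48 h, and -265.3 and -656.9 at 72 h. Both 72 h arrays were under the floor while the controls of that hour were the highest of the series for this gene. The differences were -1.46 (SE 0.19, adjusted p = 0.000166) at 48 h and -5.18 (SE 0.19, adjusted p = 4.37e-09) at 72 h, at least 36.3-fold lower. This was the smallest adjusted p of all 5589 genes at 72 h. Because both induced 72 h arrays were set to the same floor, their spread does not enter this SE or p. The same holds for CDC6.

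POLD2, the second subunit of polymerase δ, was 3.63-fold lower at 48 h (-1.86, adjusted p = 0.000981) and 12.5-fold at 72 h (-3.64, adjusted p = 2.32e-06). Its controls spanned 5303 to 7030, and it read 1099 and 2583 at 48 h and 635.5 and 424.0 at 72 h. POLD3 was lower at 72 h (-1.37, adjusted p = 0.00239). POLE, the catalytic subunit of polymerase ε, was 8.42-fold lower at 72 h (-3.07, SE 0.53, adjusted p = 0.000666), with 1379 and 268.6 against 5729 and 4581 in the controls. Its representing probe set did not pass at 48 h (-0.83, adjusted p = 0.328), while 1726_at did (-1.26, adjusted p = 0.0157). POLE2, its accessory subunit, was lower by -1.50 (adjusted p = 0.0234) and -1.54 (adjusted p = 0.0135), so that 97.8% of its 72 h difference was present at 48 h. Its 48 h call was lost without replicate 1 of the induced (adjusted p = 0.18) or replicate 1 (0.115) or 2 (0.0901) of the control arrays. The 72 h call of POLE2 was lost without replicate 1 of the induced arrays (-1.03, adjusted p = 0.129) or of the controls (-1.49, adjusted p = 0.0729).

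**Figure D3:**
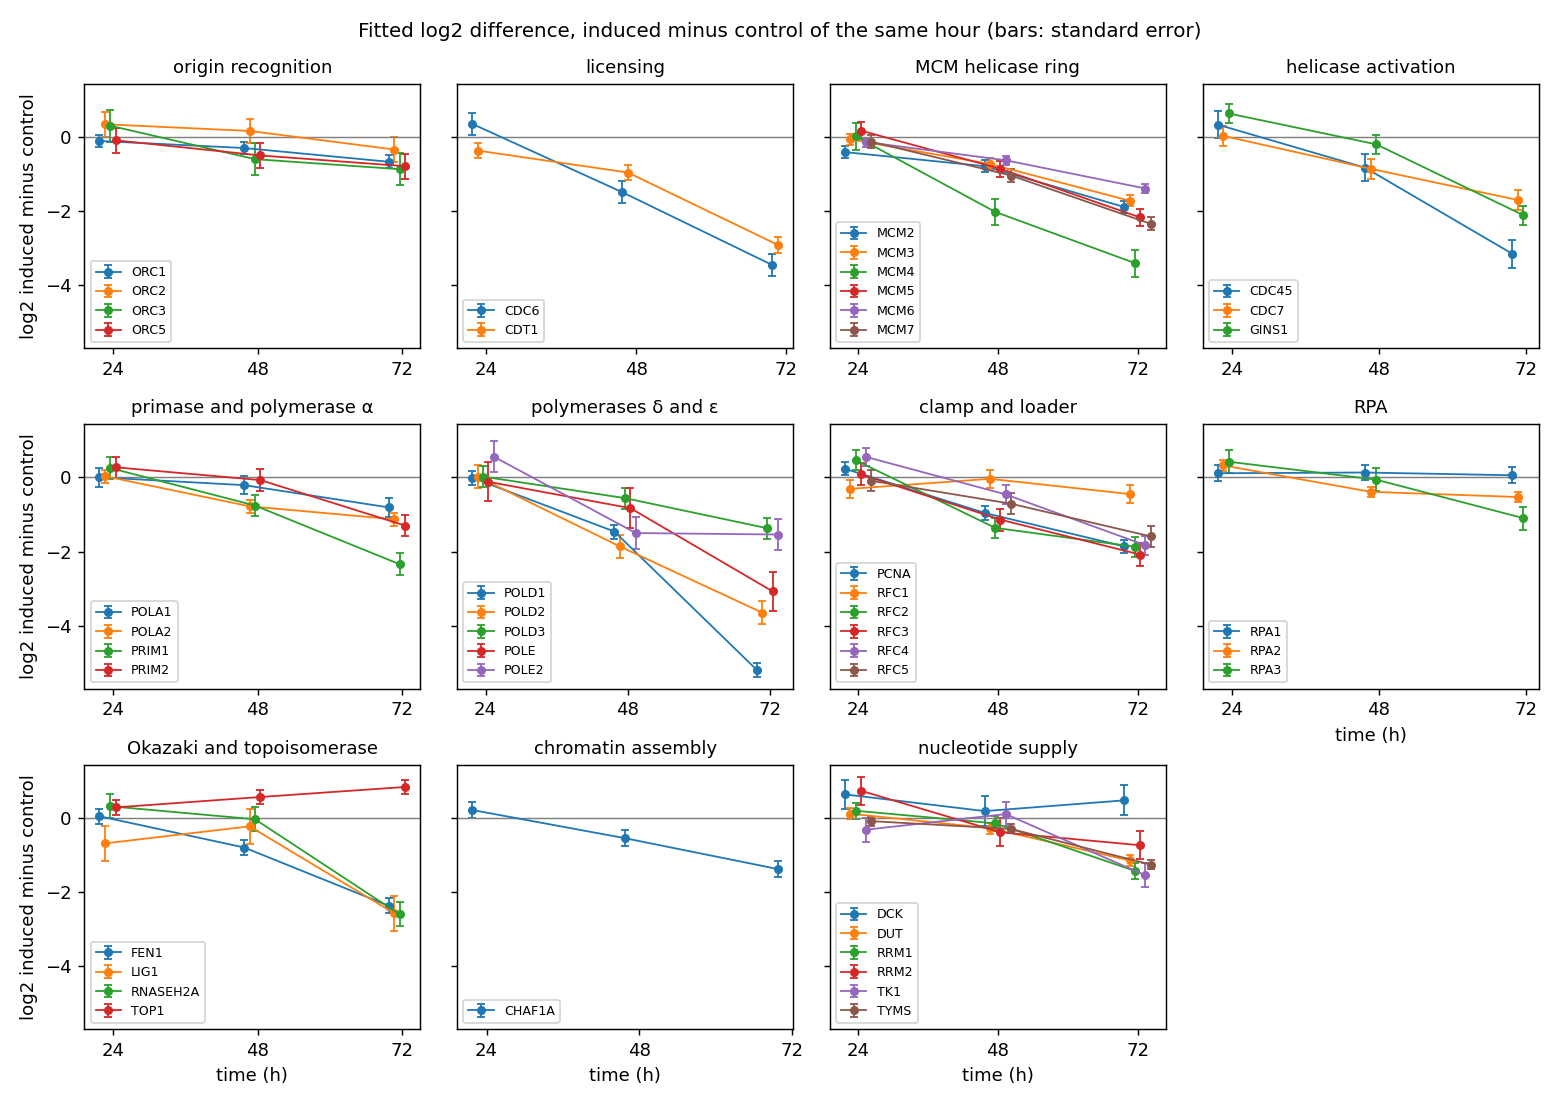
Fitted log2 difference between induced and control cells of the same hour at 24, 48 and 72 h, with standard errors, in 1 panel per replication step. By their medians at 72 h, licensing (-3.18, 2 genes) and polymerases δ and ε (-3.07, 5 genes) lie furthest below 0, and RPA (-0.53, 3 genes) and origin recognition (-0.73, 4 genes) lie closest to it.

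The sliding clamp and 4 of 5 subunits of its loader were lower at 72 h. PCNA (1884_s_at), the clamp that tethers polymerases δ and ε, read 6372 and 5623 on the control arrays at 0 h, 8669 and 7477 at 24 h, 7763 and 8932 at 48 h, and 6936 and 6587 at 72 h. Induced cells read 9641 and 6798 at 12 h, 9514 and 9403 at 24 h, 4155 and 4406 at 48 h, and 2114 and 1639 at 72 h. The 4 late induced arrays were below all other arrays. PCNA differed by -0.96 (SE 0.18, adjusted p = 0.00237) at 48 h and -1.86 (SE 0.18, adjusted p = 6.31e-06) at 72 h, 3.63-fold lower, and its other probe set, 1824_s_at, was lower at both hours too (-1.60 and -2.77).

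Replication factor C, the loader that opens the clamp, was lower at both hours in RFC2 (-1.36 and -1.87) and RFC3 (-1.14 and -2.08). RFC4 (-1.83, adjusted p = 0.000104) and RFC5 (-1.59, adjusted p = 0.000763) were lower at 72 h. Its large subunit RFC1 did not pass at 48 h (-0.04, adjusted p = 0.944) or 72 h (-0.45, adjusted p = 0.203), with 1139 and 966.4 at 72 h of induction against 1388 and 1475 in the controls. A dimmer RFC4 probe set, 1054_at, missed the threshold at 72 h (-1.0, adjusted p = 0.0765). For RFC5 the second probe set, 653_at, was lower already at 48 h (-1.11, adjusted p = 0.0187), when the representing set was not called (-0.71, adjusted p = 0.0984). The RFC3 call at 48 h was lost without replicate 1 of the induced arrays (adjusted p = 0.13) or replicate 1 (0.074) or 2 (0.0857) of the controls.

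Of replication protein A, which coats single-stranded DNA, 2 of 3 subunits, RPA2 and RPA3, were lower at 72 h, and RPA1 was not called. RPA2 (1119_at), its middle subunit, read 6172 and 5201 on the control arrays at 0 h, 4123 and 3645 at 24 h, 4804 and 4639 at 48 h, and 4553 and 4935 at 72 h. Induced cells read 4260 and 4001 at 12 h, 4721 and 4965 at 24 h, 3552 and 3632 at 48 h, and 3365 and 3184 at 72 h. Late induced arrays lay just under the lowest other array, and the 72 h difference was -0.53 (SE 0.14, adjusted p = 0.0107), 1.45-fold lower. That call was lost without replicate 2 of the induced (adjusted p = 0.0529) or of the control arrays (0.068) of 72 h. RPA3, the smallest subunit, was 2.14-fold lower at 72 h (-1.10, adjusted p = 0.0158), and its other probe set, 651_at, was 3.37-fold lower (-1.75, adjusted p = 0.0125). The call of the representing RPA3 set was likewise lost without induced replicate 1 (adjusted p = 0.0651) or 2 (0.0738) or control replicate 2 (0.114). RPA1, the large DNA-binding subunit, read 2077 and 1664 at 72 h of induction against 1498 and 2133 in the controls (0.06, adjusted p = 0.874).

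The 3 enzymes that finish the lagging strand were lower at 72 h, and TOP1, which relaxes supercoils ahead of the fork, was higher. FEN1 (41583_at), the flap endonuclease of Okazaki fragments, read 6596 and 4217 on the control arrays at 0 h, 8432 and 6496 at 24 h, 7551 and 6167 at 48 h, and 6433 and 5835 at 72 h. Induced cells read 6817 and 6874 at 12 h, 7694 and 7542 at 24 h, 3682 and 4198 at 48 h, and 1233 and 1145 at 72 h. The lowest control, at 0 h, lay close to the 48 h arrays, and the 72 h arrays lay far below both. FEN1 differed by -0.80 (SE 0.20, adjusted p = 0.0141) at 48 h and -2.37 (SE 0.20, adjusted p = 2.42e-06) at 72 h, 5.16-fold lower. Without replicate 1 of the induced or of the control arrays its 48 h call was lost (adjusted p = 0.0979 and 0.13).

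RNASEH2A, the catalytic subunit of the RNase H that removes ribonucleotides from DNA, read 1293 and 1701 at 48 h of induction, among the controls at 1248 to 2220, and 448.4 and 257.9 at 72 h. Its difference was -0.04 (adjusted p = 0.959) at 48 h and -2.60 (SE 0.32, adjusted p = 4.69e-05) at 72 h, 6.05-fold lower. LIG1, the ligase that seals Okazaki fragments, read 106.3 and 368.8 at 72 h of induction against 1389 and 1262 in the controls (-2.57, SE 0.47, adjusted p = 0.00102, at least 5.92-fold lower). At 48 h LIG1 did not pass (-0.23, adjusted p = 0.805), with 736.0 and 1562.

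TOP1 (1030_s_at) read 6693 and 5766 on the control arrays at 0 h, 5499 and 7191 at 24 h, 6625 and 4842 at 48 h, and 4245 and 5182 at 72 h. Induced cells read 5624 and 7295 at 12 h, 7582 and 7644 at 24 h, 9005 and 7742 at 48 h, and 8118 and 8544 at 72 h. All 6 induced arrays from 24 h on exceeded the highest control, 7191. The difference was 0.56 at 48 h (SE 0.20, adjusted p = 0.0629) and 0.83 (SE 0.20, adjusted p = 0.00555) at 72 h, 1.78-fold higher. At 48 h TOP1 passed without replicate 1 of the 48 h controls (0.79, adjusted p = 0.0444). The 72 h call was lost without replicate 1 of the 72 h controls (0.68, adjusted p = 0.0629), and against the 0 h controls in place of those of 72 h (0.42, adjusted p = 0.131). A second TOP1 probe set, 1710_s_at, did not pass (0.56, adjusted p = 0.41).

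Among the nucleotide enzymes 4 of 6 were lower at 72 h and none was called at 48 h. TYMS (1505_at), which makes thymidylate, read 14334 and 15320 on the control arrays at 0 h, 17472 and 15250 at 24 h, 16329 and 16128 at 48 h, and 15087 and 13605 at 72 h. Induced cells read 16357 and 15713 at 12 h, 15635 and 15048 at 24 h, 13804 and 12541 at 48 h, and 6126 and 5841 at 72 h. Its 72 h arrays were far below the rest, while 1 of the 48 h arrays still lay among the controls. TYMS differed by -0.30 (SE 0.12, adjusted p = 0.101) at 48 h and -1.26 (SE 0.12, adjusted p = 5.79e-06) at 72 h, 2.4-fold lower.

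RRM1, the large subunit of ribonucleotide reductase (-1.43), TK1, the thymidine salvage kinase of S phase (-1.55), and DUT, which clears dUTP (-1.15), were lower at 72 h with adjusted p of 0.000161, 0.00215 and 5.58e-05. RRM2, the small reductase subunit, did not pass (-0.74, adjusted p = 0.158), although its 72 h arrays (677.6 and 697.9) were the lowest of the 16. Its controls ranged from 842.7 to 1924 and one 24 h induced array reached 3439. DCK, the deoxycytidine salvage kinase, did not pass either (0.47, adjusted p = 0.409), with 946.1 and 518.2 against 346.5 and 733.1.

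CHAF1A, the large subunit of chromatin assembly factor 1, which places histones behind the fork, was the tested gene of that step. CHAF1A (32589_at) read 4657 and 2985 on the control arrays at 0 h, 3142 and 3437 at 24 h, 3135 and 3951 at 48 h, and 3278 and 3180 at 72 h. Induced cells read 3839 and 4189 at 12 h, 3516 and 4119 at 24 h, 2466 and 2340 at 48 h, and 1358 and 1133 at 72 h. The 4 late induced arrays were below the other 12. The difference was -0.55 at 48 h (SE 0.21, adjusted p = 0.0874) and -1.38 (SE 0.21, adjusted p = 0.000248) at 72 h, 2.6-fold lower. CHAF1B, its partner, read between -207.6 and 226.4 on 7 control arrays and 889.7 on replicate 1 of the 48 h controls, and was not tested.

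More genes were called at 72 h than at 48 h. Of the 44, 17 were lower at 48 and 72 h: MCM2 to MCM7, CDC6, CDT1, CDC7, POLA2, POLD1, POLD2, POLE2, PCNA, RFC2, RFC3 and FEN1. A further 19 were lower at 72 h and not called at 48 h, among them CDC45, GINS1, PRIM1, POLE, LIG1, RNASEH2A, TYMS, TK1 and RRM1. Membership of these groups moved with the processing: 7 of the 17 kept their 48 h call in every alternative tried, and RFC5, PRIM1, CHAF1A and RPA2, of the 19, gained one in 3, 4, 4 and 5 of 26. A call at one hour and not at the other does not show that the hours differ, so the difference between the 72 h and the 48 h effect was tested itself. In all 36 genes lower at 72 h the 72 h effect was below that of 48 h, but selection by the 72 h call itself favours this. Of the 44 genes, not selected by a call, 42 had a difference below 0 (median -0.95). Of all genes 48.3% did (median 0.02). The test called 7 of them, MCM7, CDT1, GINS1, POLD1, TYMS, FEN1 and RNASEH2A, which were 4 of the 17 and 3 of the 19, and none in the other direction. These were 7 of the 25 genes called lower in this contrast among 5589 (0.447%), with 0.0537% called higher. The count depended on single arrays and ran from 1 to 10 when 1 was left out. It was 3 without either replicate of the induced 24 h cells, 2 without either of the induced 48 h cells or replicate 2 of the induced 72 h cells, and 1 without any single array of the 48 or 72 h controls. The count of all genes called lower in this contrast also fell without most of these arrays. POLD1 was called in every alternative tried.

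**Figure D4:**
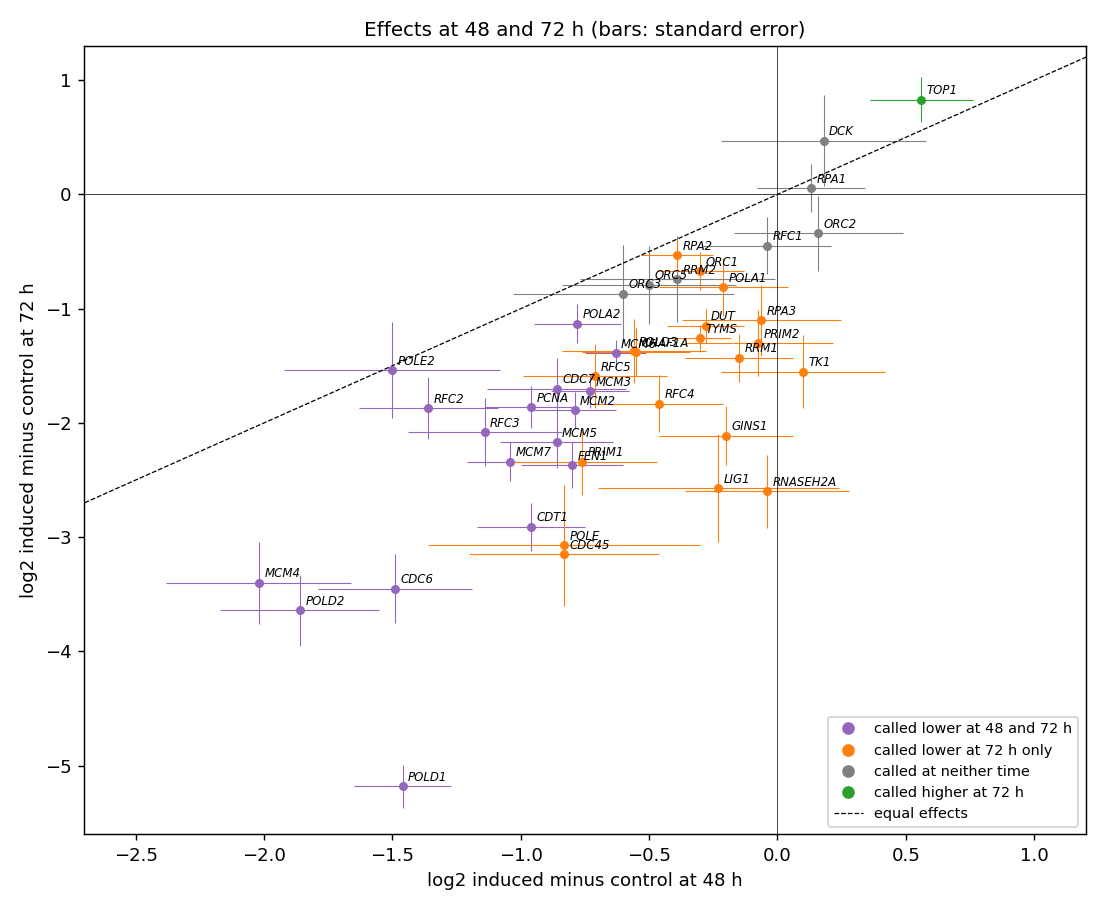
Log2 difference between induced and control cells at 72 h (vertical) against 48 h (horizontal) for the 44 genes, with standard errors, coloured by call at the 2 hours, and with a dashed line of equal effects. The genes lower at 72 h lie below the line, with POLD1 lowest at -5.18 and POLE2 closest to the line, and TOP1 stands alone above 0 as a called gene. Genes with both 72 h arrays at the floor (POLD1, CDC6) could lie lower than drawn.

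The step from 24 to 48 h was tested in the same way. It was below 0 and called in 7 of 44 genes and above 0 in none, with a median of -0.69, against 3.04% called lower and 1.93% called higher of all genes and a median of 0.07. The 7 were MCM4, MCM7, PCNA, RFC2, CDC6, POLD1 and POLD2. This count fell to 1 without either replicate of the induced 24 h cells or replicate 2 of the 24 h or the 48 h controls. It was 2 without replicate 1 of the induced 48 h cells and 3 without replicate 1 of the 48 h controls. Fewer of all genes were called lower in this contrast without these arrays too. On the arrays themselves, both 72 h arrays lay below the other 14 in 36 of the 44 genes, against 10.2% of all genes tested. All 4 late induced arrays lay below the other 12 in 21, against 9.3%. In 20 genes both 72 h arrays lay below both of 48 h, and these below the other 12, against 5.1% of all genes.

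Before 48 h no such difference was detectable. At 24 h the median of the 44 genes was 0.10, against 0.04 for all genes, and the smallest adjusted p among them was 0.922. MCM2 (-0.41) was lower and GINS1 (0.63), RPA2 (0.32) and RFC4 (0.55) higher at an unadjusted p under 0.05, as were 311 of all 5589 genes in either direction. Replicate 2 at 24 h had a RUNX1T1 value that did not exceed the controls. Leaving it out sets 1 induced array against 2 controls, too few to read a count from. The part of replicate 2 in the 24 h result was not tested. At 12 h, against the 0 h controls, 1 of 44 genes was called lower and 0 higher (median -0.01), against 2.38% and 1.22% of all genes (median -0.16). That gene was ORC3, at 126.1 and 138.7 against 544.6 and 702.8 (-2.17, SE 0.43, adjusted p = 0.0166, at least 4.51-fold). The 0 h controls of ORC3 were the highest of its 16 arrays, at 216.1 to 368.2 in later controls, and its call was lost without replicate 2 of either group. The count was 2 without either replicate of the induced 72 h cells. Time and induction are not separated in this contrast, and the 12 h arrays showed no RUNX1T1 signal above the controls.

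Over time in control cells, limma called 0 of the 44 genes at 24, 48 or 72 h against 0 h. At 72 h their median was -0.03, with differences from -0.91 (ORC3) to 0.54 (CDC6), and 1 had an unadjusted p under 0.05. At 24 h 7 and at 48 h 4 had an unadjusted p under 0.05, with medians of 0.035 and 0.052. Such a p was reached by 770, 514 and 407 of all 5589 genes at 24, 48 and 72 h, a similar share at 24 and 48 h. Of all genes, 0.34% were called lower and 0.179% higher at 24 h, 0% and 0.0179% at 48 h, and 0.0179% and 0% at 72 h.

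Promoters of the genes called at both hours and of those called at 72 h alone were set side by side as a description. An E2F-type octamer was in at least 1 window of 11 of the 15 genes with a window that were lower at both hours (73.3%), 6 of the 16 lower at 72 h and not called at 48 h (37.5%) and 2 of the 8 not called lower (25%, DCK and ORC3). Of the excerpts shown above, MCM7, PCNA, CDT1 and POLA2 belong to the first group and POLE, TYMS and LIG1 to the second. None could belong to the third, because the excerpts were taken only from genes called lower at 72 h. A CCAAT box was in 6 of 15 (40%), 11 of 16 (68.8%) and 5 of 8 (62.5%).

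Other genes of the pathway, from 80 further symbols in 4 lists, gave 54 tested genes, of which 29 were lower and 2 higher at 72 h and 17 lower and 1 higher at 48 h. That is 53.7% lower and 3.7% higher at 72 h, against 14.4% and 16.9% of all genes, and 31.5% and 1.85% at 48 h, against 8.98% and 11.5%. Further replisome and initiation factors were lower in 8 of 13 at 72 h. The largest differences were in RECQL4, a helicase of origin firing (-2.64, adjusted p = 0.00491, at least 6.23-fold), RNASEH2B, the partner of RNASEH2A (-2.63, adjusted p = 5.35e-05), and TOPBP1, a scaffold of helicase activation (-1.95, adjusted p = 0.0071). Nucleotide synthesis genes outside the members were lower in 13 of 15 at 72 h and in 11 at 48 h, when none of the 6 member enzymes was called. ATIC (-2.80, adjusted p = 4.62e-07), an enzyme of purine synthesis, MTHFD1 (-2.62, adjusted p = 2.70e-05) of folate metabolism, and NME1 (-2.36, adjusted p = 0.000102), a nucleoside diphosphate kinase, led this list.

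Genes of chromatin copying were lower in 3 of 7 at 72 h: the histone chaperones SSRP1 (-1.50, adjusted p = 5.37e-05) and NASP (-1.02, adjusted p = 0.00239) and the maintenance methyltransferase DNMT1 (-0.85, adjusted p = 0.00375). S phase regulators were mixed, with 5 of 19 lower and 2 higher (26.3% and 10.5%, nearer to the 14.4% and 16.9% of all genes than the other 3 lists). The checkpoint kinase CHEK1 (-3.04, adjusted p = 4.59e-05, at least 8.25-fold), cyclin A2 (CCNA2, -1.56, adjusted p = 7.11e-05) and its kinase CDK2 (-1.12, adjusted p = 0.000901) were the largest falls. RB1, the pocket protein that restrains E2F, was 2.78-fold higher (1.47, adjusted p = 0.000596), and CUL4A, the scaffold of a ligase that degrades CDT1, was at least 2.76-fold higher (1.46, adjusted p = 0.0496).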

How the data were processed

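Per the labels, total RNA of 16 samples (8 groups of 2) was hybridised to Affymetrix U95Av2 arrays, and a scale factor is given for each. The deposited values are linear intensity values, 1 per probe set and array, and the sources used here do not name the software that made them. No further scaling was applied. Values under the floor of 135.61 were set to it, which touched 9.81% of tested values, and log2 was taken. Gene symbols came from the platform annotation, which can be old, and 67 control probe sets were left out. limma 3.58.1 in R 4.3.3 was fitted with 1 mean per group to all arrays (8 residual degrees of freedom, eBayes with a trend, a median prior of 5.19), with Benjamini-Hochberg adjustment over 7824 probe sets. Precision is limited by the number of arrays, 2 in each group.

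Fold changes were taken from the fitted log2 means and carry "at least" where some arrays on the lower side were at the floor. Beside the calls, shares of all genes use 1 probe set per gene. Values on every array are given for the gene of smallest adjusted p in each step at 72 h and for genes called against the direction of the rest. Outside the members, the 3 largest called differences of each list and direction at 72 h are named. RUNX1T1 is always given. Examples beyond these are members, named for their role, and CCNE2, named for its call in the average of the 3 hours. The members and lists were chosen with earlier results of these data known. On simulated data for the 72 h comparison with 200 of 7824 probe sets changed, 98% of 4-fold, 54% of 2-fold and 18% of 1.5-fold falls were recovered, with 4 false calls. The changed sets were drawn only from those with a control mean over 2 log2 units above the filter, with independent normal noise. These rates therefore do not cover dimmer genes, such as ORC3, ORC5 and POLE2 (means of 288.3, 671.2 and 710.3 over all arrays). In the data a larger share of genes was called at 72 h, 14.4% lower and 16.9% higher. The Benjamini-Hochberg cutoff depends on that share, so the rates do not carry over directly. The floor, filter, scaling, trend, controls, arrays and probe sets used and a replicate block were varied.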

Additional observations from a re-analysis of the deposited data

Results flagged for a closer look

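The effect of induction differed between hours in several genes, by limma's test of the difference (adjusted p over all probe sets, log2 scale). From 48 to 72 h it became more negative by -3.72 in POLD1 (SE 0.27, adjusted p = 2.49e-05). Both induced 72 h arrays of POLD1 lay at the floor, so the change was at least this large and the SE leaves out their spread. The same test gave -2.56 in RNASEH2A (SE 0.45, adjusted p = 0.031), -1.96 in CDT1 (SE 0.30, adjusted p = 0.0133) and -1.91 in GINS1 (SE 0.36, adjusted p = 0.0375). It gave -1.57 in FEN1 (SE 0.29), -1.29 in MCM7 (SE 0.24) and -0.96 in TYMS (SE 0.17), each with an adjusted p of 0.031. For CDT1 the control mean rose from 3722 at 48 h to 6531 at 72 h, while the induced mean fell from 1919 to 881.0, so both arms enter its change.

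From 24 to 48 h the change in effect was -2.03 in MCM4 (SE 0.51, adjusted p = 0.0354), -1.88 in POLD2 (SE 0.44, adjusted p = 0.0257), -1.84 in CDC6 (SE 0.43, adjusted p = 0.0256) and -1.82 in RFC2 (SE 0.38, adjusted p = 0.015). It was -1.45 in POLD1 (SE 0.27, adjusted p = 0.00854), -1.19 in PCNA (SE 0.26, adjusted p = 0.0176) and -0.91 in MCM7 (SE 0.24, adjusted p = 0.0435). POLD1 and MCM7 passed at both steps.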

How the results depend on the processing

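No call of a member in the average, at 48 h, at 72 h or in the 72 h minus 48 h difference changed sign in up to 26 alternatives. Of the members called in the average of 3 hours 25 of 33 kept their call in all of them, at 48 h 7 of 17 (MCM2, MCM3, MCM4, MCM6, MCM7, RFC2 and POLD1), at 72 h 29 of 37, and for the 72 h minus 48 h difference 1 of 7 in 25. With 1 array left out, members lower numbered 31 to 34 (average), 11 to 18 (48 h), 33 to 36 (72 h), 0 to 2 (12 h), 1 to 10 (72 h minus 48 h) and 1 to 7 (48 h minus 24 h). Members higher numbered 0 to 1 at 48 h and at 72 h. Counts of all genes moved as well when 1 array was left out. Other settings gave 27 to 40 members lower (average), 14 to 21 (48 h) and 31 to 46 (72 h, the top with every probe set counted). Against the 0 h controls 0 members were higher in the average and at 72 h, and 1 was lower at 24 h. The 48 h calls of PCNA (adjusted p = 0.0907) and CDC6 (0.0511) were among those lost there, while ORC3, PRIM1 and RPA2 gained one. With only the arrays compared, calls lost included POLD2 at 48 h (adjusted p = 0.0792). At 72 h they included POLE (0.0782), PRIM2 (0.0579) and LIG1 (0.0534). Quantile normalization called 1 higher at 48 h. At 12 h 2 were lower with no filter and 0 with only the arrays compared. For 72 h minus 48 h the 7 became 12 with the floor at the 50th percentile, 12 with quantile normalization, 4 with median centring, 3 without the mean-variance trend and 1 with only the arrays compared. For 48 h minus 24 h the 7 became 3 without the trend and 4 with only the arrays compared. Among controls at 24 h 1 was lower with the floor at the 50th percentile. The cause was not tested, beyond fewer arrays in the settings that use fewer. The median of all genes at 72 h was 0.19 as reported, 0.04 after quantile normalization and 0.01 after median centring, and that of the members -1.57, -1.74 and -1.75. With a replicate block 36 members were lower at 72 h and 17 at 48 h. The difference of replicate 1 from replicate 2 in 1 group was correlated over probe sets with that in another. These correlations ran from -0.152 to 0.25 over 28 pairs of groups, above 0.1 in 7 and not in every pair. The replicate numbers were therefore not taken as pairs. Replicate 1 had the larger share of values below 0 in all 4 control groups and at 12 h.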

Other observations

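Of 12 member genes with several tested probe sets, 9 had the same call in all of them at 72 h, and CDC6, RFC4 and TOP1 did not. Counted as probe sets, 46 of 58 were lower and 1 higher at 72 h, and 21 were lower at 48 h. Another FEN1 probe set, 1516_g_at, gave -0.21 (adjusted p = 0.531) at 48 h, when the representing set was lower.

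Cyclin E2 (CCNE2), which activates CDK2 at the start of S phase, was higher in the average of the 3 hours (0.72, adjusted p = 0.0477), while 0.24 at 72 h did not pass. Neither value sets its direction at a single hour.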
